A study of Mus musculus with 12 samples.

Results

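Smooth muscle contractile and mesenchymal genes were examined in a map of Runx1b binding made by DamID-seq in mouse haemogenic endothelium, the endothelial cells that give rise to blood. The set holds 10 genes, taken by symbol from the deposited table. It consists of the contractile genes Acta2, Tagln, Cnn1, Myh11, Mylk, Cald1 and Tpm1, of Vim, and of the PDGF receptor genes Pdgfra and Pdgfrb. Of these 10 genes 7 had a row in the table, and Tagln, Cnn1 and Myh11 had no region. The 7 genes held 24 of the 8133 regions listed, at 7 of 5867 genes.

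DamID joins a protein of interest to Dam, a DNA methylase from bacteria. Where the joined protein binds, Dam adds methyl groups to nearby GATC sites, and fragments cut at such sites are sequenced. Here the protein was Runx1b, one of the isoforms of Runx1, a transcription factor that blood formation requires. The labels describe 6 libraries from a Runx1b::Dam line and 6 from a Dam control line, both runx1-/- and of strain 129, grown as embryonic stem cells and differentiated. FLK1+ cells were isolated at day 3.25 and cultured for 2 days, then sorted as cKIT+ TIE2+ CD41- for 2 libraries of each line or selected for FLK1 for the other 4. In each line 3 libraries are labelled as biological replicates and 3 as technical replicates of those. All 3 technical replicates were selected for FLK1, whereas the 2 libraries that they replicate were the sorted ones. Cells were thus not the same population in every library, and neither line has functional Runx1 of its own. In the table each gene has a single read count that no library is named for. Library depths are therefore unknown, the spread between replicates cannot be given, and nothing can be set against the Dam control. Reads per kb are the reads divided by the summed length of a gene's regions, a signal within regions and not an enrichment over Dam.

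Smooth muscle contracts when myosin, switched on by phosphorylation of its light chain, pulls on actin filaments that carry tropomyosin, caldesmon and calponin. Many of these genes are activated by serum response factor (SRF) with its partner myocardin or related coactivators, through a DNA element called the CArG box. In the early embryo haemogenic endothelium, smooth muscle and heart muscle all derive from FLK1+ mesoderm. Vimentin is the intermediate filament of mesenchymal and endothelial cells, and the PDGF receptors are receptor tyrosine kinases of mesenchymal progenitors, pericytes and smooth muscle. DNA adenine methylation was measured and not RNA, so these data cannot show whether any of the genes was expressed, and they cannot check the cell type.

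Runx proteins bind the letters TGTGGT or TGCGGT, and the start-site sequences of the genes were searched for them on both strands. RefSeq (GRCm38.p6) gave sequences for 7 of the 10 genes, with 2 start sites for Cald1. Over the 250 bases before the start, Mylk held TGTGGT at 2 places and Tpm1 held TGCGGT once. The 5 other genes with a sequence, among them Vim and Acta2, held neither. Of all 32851 start-site windows of this length 14.0% held TGTGGT, 5.10% held TGCGGT and 18.6% held one or the other. The windows of Mylk and Tpm1 are shown because they hold the letters, and that of Vim because it had the most reads per kb of the 7 genes without holding them. Capitals mark TGTGGT and TGCGGT. In Mylk both stand on the opposite strand and read ACCACA, at bases 158 to 163 and 168 to 173 counted from the left end. In Tpm1 the letters are at bases 199 to 204.
Mylk, chr16:34784700-34784949, plus strand: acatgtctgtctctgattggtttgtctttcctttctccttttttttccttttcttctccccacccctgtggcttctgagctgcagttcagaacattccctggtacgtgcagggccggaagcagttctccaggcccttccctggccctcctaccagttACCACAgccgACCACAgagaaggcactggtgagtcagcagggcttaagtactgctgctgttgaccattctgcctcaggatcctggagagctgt
Tpm1, chr9:67049214-67049463, minus strand: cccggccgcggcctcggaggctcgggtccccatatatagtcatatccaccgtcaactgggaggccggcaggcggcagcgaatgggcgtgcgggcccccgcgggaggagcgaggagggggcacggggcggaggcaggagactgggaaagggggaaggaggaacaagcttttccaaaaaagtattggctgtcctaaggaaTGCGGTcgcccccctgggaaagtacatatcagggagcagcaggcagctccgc
Vim, chr2:13574061-13574310, plus strand: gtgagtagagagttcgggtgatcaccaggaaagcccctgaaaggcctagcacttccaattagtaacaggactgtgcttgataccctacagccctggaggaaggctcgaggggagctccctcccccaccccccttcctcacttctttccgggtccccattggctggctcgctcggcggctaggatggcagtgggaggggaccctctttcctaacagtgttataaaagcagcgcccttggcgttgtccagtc

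GATC, the sequence that Dam methylates, was present in the windows of Vim, Cald1, Mylk and Acta2 and in 41.9% of all windows, and it did not overlap the Runx letters. The CArG box was searched for by its strict consensus, and none of the 7 genes held a full match within these 250 bases, against 1.47% of all windows. Forms that depart from the consensus were not counted, such as ccctatatgg and ccttgtttgg in the Acta2 window. The search therefore does not show that a gene lacks CArG elements. A match in a window is a description of its letters and shows no binding. The windows are of another build than the mm9 regions, so whether a region covers them was not analysed here.

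Acta2, the smooth muscle alpha-actin and the most used marker of the lineage, had 1 region. It lay on chromosome 19 of mm9 (the build of all region positions) between 34329155 and 34330805, was 1.65 kb wide and held 1602 reads, or 970.3 reads per kb (95% Poisson interval 923 to 1019). That was higher than in 78.0% of the listed genes, whose median was 683 (quartiles 515 and 918). The next listed region at higher positions was 218 kb away, at Ch25h and Gm16704. Myh11, the smooth muscle myosin heavy chain, is a gene of 97.7 kb and had no region, like most protein-coding genes of its length class, of which 33.2% had one. Tagln, or SM22-alpha, an actin-bundling protein, and Cnn1, the basic calponin that inhibits actin-activated myosin, are short genes and had no region either. Tagln, of 6.43 kb, stands in a length class where 14.4% of genes had one, and Cnn1, of 10.001 kb, in one where 16.9% did. A gene without a region is one that the authors' table does not list, and no read count for it was analysed here.

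Mylk encodes the kinase that phosphorylates the myosin light chain and so starts contraction. It had 7 regions, all assigned to Mylk alone, spread over 103 kb of chromosome 16 between 34864914 and 34967614. Their sum was 12104 reads, at 984 reads per kb (966 to 1001), higher than in 78.8% of listed genes. Their widths ran from 1.3 to 2.25 kb, beside a median of 2.1 kb for all regions, and they lay unevenly. The first was separated from the second by 42.5 kb, whereas the smallest gap was 4.05 kb and the median gap 7.6 kb. The outer neighbours were far off, at 768 kb (Kalrn) and 521 kb (Pdia5), and no region of another gene stood between the first and the last. Only 60 of 5867 genes (1.02%) had 7 or more regions.

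Cald1 encodes caldesmon, an actin- and tropomyosin-binding protein that holds back myosin. It had more regions than any other of the 10 genes, 9 over a stretch of 170.2 kb on chromosome 6, from 34532769 to 34702969, and these held 19080 reads. Just 13 genes in the table had more regions. Its reads per kb were the lowest of the 7 genes at 648 (639 to 657), below the median of all listed genes and higher than in 44.9% of them. A high number of regions thus stood beside an ordinary signal per kb. For comparison, the 10 genes with 9 regions had a median of 701 reads per kb, the 60 genes with 7 or more had 773, and the 4239 genes with 1 region had 662.

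The widths of the Cald1 regions ran from 1.35 to 6.65 kb. RefSeq places Cald1 on the plus strand, and the last 3 regions in reading direction were its widest, at 4.95, 4.7 and 6.65 kb. These were the 3 of the 24 regions that reached 4.5 kb, as 7.68% of all regions did, and the last was wider than 98.1% of all regions. The sixth region, between 34638169 and 34639819, was also assigned to the gene model Gm11157. If a shared region counts in full for each of its genes, which could not be checked, its own count was 954 reads. On that assumption it had 578 reads per kb (542 to 616), against 652 (642 to 661) for the sum of the other 8 regions. This difference would be larger than counting error. Counts for the single regions of Mylk, Tpm1 and Pdgfra, and for the other 8 of Cald1, cannot be separated from their sums. Before the first Cald1 region the next listed region was 1566 kb away, at Chchd3, and after the last it was 106.5 kb away, at Agbl3.

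Tpm1, the alpha-tropomyosin gene that makes muscle and non-muscle forms by alternative promoters and splicing, had 3 regions on chromosome 9 between 66852701 and 66893301. They held 6040 reads at 794 reads per kb (775 to 815), higher than in 63.7% of listed genes. Their widths were 1.5, 1.65 and 4.45 kb. RefSeq places the gene on the minus strand, so the widest is the first in reading direction. The regions spanned 40.6 kb, more than the 27.1 kb of the RefSeq gene, so at least 1 of them reached beyond the gene's ends. The same held for 69 of 303 genes with 3 regions (22.8%). The nearest region outside lay 11.8 kb away and was assigned to a U6 small RNA gene.

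**Figure D1:**
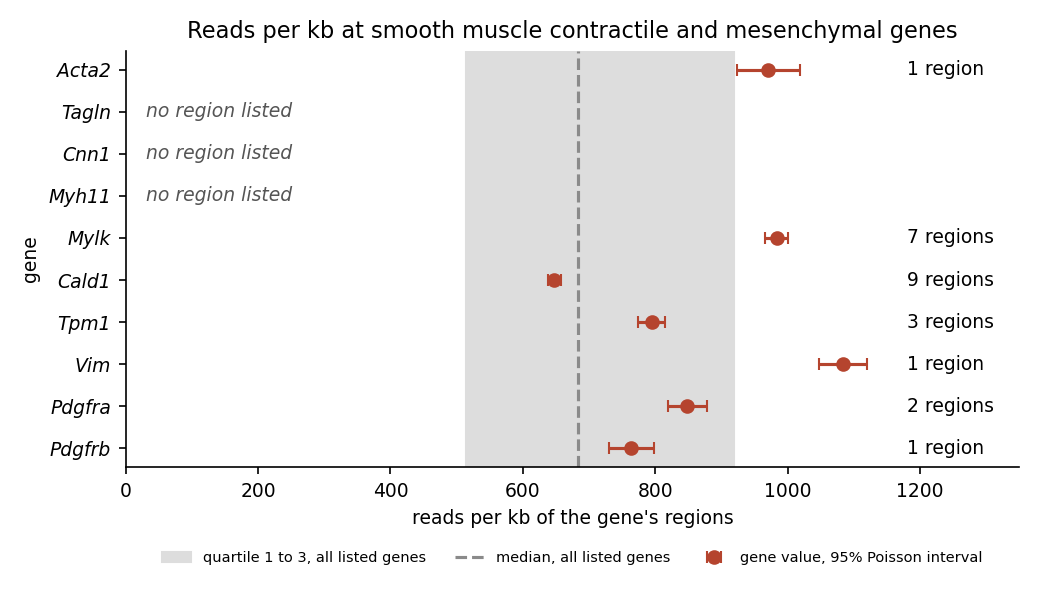
Reads per kb of each gene's regions (x axis) for the 10 genes (y axis), with 95% Poisson intervals that cover counting error only. The grey band and dashed line show quartiles (515 and 918) and median (683) of all listed genes. Vim, Mylk and Acta2 lie right of the band, Cald1 left of the median, and Tagln, Cnn1 and Myh11 have no region.

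**Figure D2:**
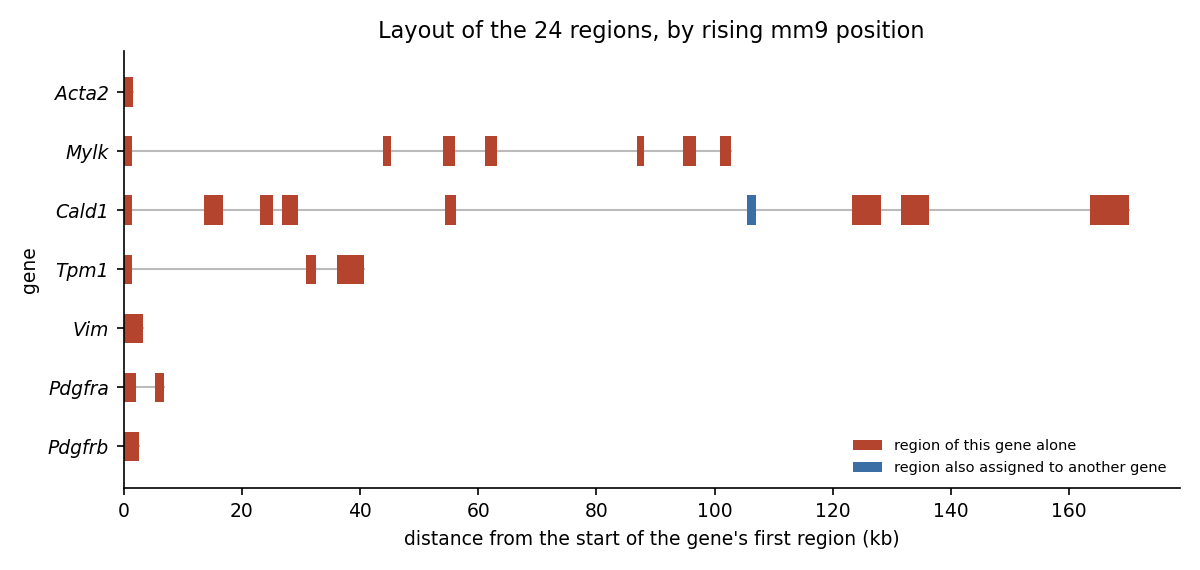
The 24 regions drawn to scale as bars, by distance in kb from the start of each gene's first region (x axis) for the 7 genes with a region (y axis). Cald1 spreads 9 regions over 170.2 kb with the 3 widest at the far end, and Mylk 7 over 103 kb. The blue bar is the Cald1 region shared with Gm11157.

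Vim had the highest reads per kb of the set. Its single region on chromosome 2 between 13493274 and 13496474 was 3.2 kb wide and held 3468 reads, or 1083 reads per kb (1048 to 1120.1), higher than in 84.2% of listed genes. The region covered a length equal to 37.6% of this short gene of 8.52 kb. The interval of Vim lay above those of the 6 other genes, so its signal was higher by more than counting error. A region of the gene model Gm9875 lay 15.9 kb before it, and the next one after it was 589 kb away, at Fam23a.

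Both PDGF receptor genes had regions. Pdgfra, the receptor that marks paraxial and other mesenchymal progenitors, had 2 on chromosome 5 between 75544129 and 75550929, separated by 3.15 kb. They held 3098 reads, at 848 reads per kb (819 to 879). Pdgfrb, the receptor of pericytes and vascular smooth muscle, had 1 on chromosome 18 from 61205708 to 61208358. It held 2024 reads, at 763 reads per kb (731 to 797). The Pdgfra value was 1.11 times that of Pdgfrb, and their counting intervals did not overlap. Pdgfra was higher than 69.5% of listed genes, and Pdgfrb was higher than 60.2%. After Pdgfra the next listed region was 423 kb away and belonged to Kit, a receptor tyrosine kinase gene of the same family.

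Ordered by reads per kb, the 7 genes ran Vim, Mylk, Acta2, Pdgfra, Tpm1, Pdgfrb and Cald1. Of the neighbours in this order, Mylk with Acta2 and Tpm1 with Pdgfrb had overlapping counting intervals, and the other 4 pairs did not. The intervals cover counting error only, and copies that PCR makes of 1 fragment are not independent, so the true error may be larger. The 7 genes lie on 7 chromosomes whose median reads per kb ran from 639 (chromosome 16) to 707 (chromosome 2). Divided by the median of its chromosome, Mylk reached 1.54, Vim 1.53, Acta2 1.40, Pdgfra 1.27, Pdgfrb 1.15, Tpm1 1.14 and Cald1 0.988. On this scale Mylk stood above Vim and Pdgfrb above Tpm1, and Cald1 was again the lowest.

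Gene length and the number of regions were compared next, since long genes had regions more often. Protein-coding genes were cut into 10 classes of equal size by length. In the class of the longest genes, from 108.5 kb up, 45.3% had a region, with a median of 2 regions among those. Cald1 and Mylk belong to this class, where 0.868% of genes had at least 9 regions and 2.24% had at least 7. In the class of Tpm1, genes of 24.6 to 35.8 kb, 21.2% of genes had a region and 1.51% had 3 or more. In the class of Pdgfra and Pdgfrb 25.5% had a region, and 7.77% had 2 or more, as Pdgfra did. Acta2 stood in a class where 17.8% of genes had a region, and Vim in one where 16.9% did.

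**Figure D3:**
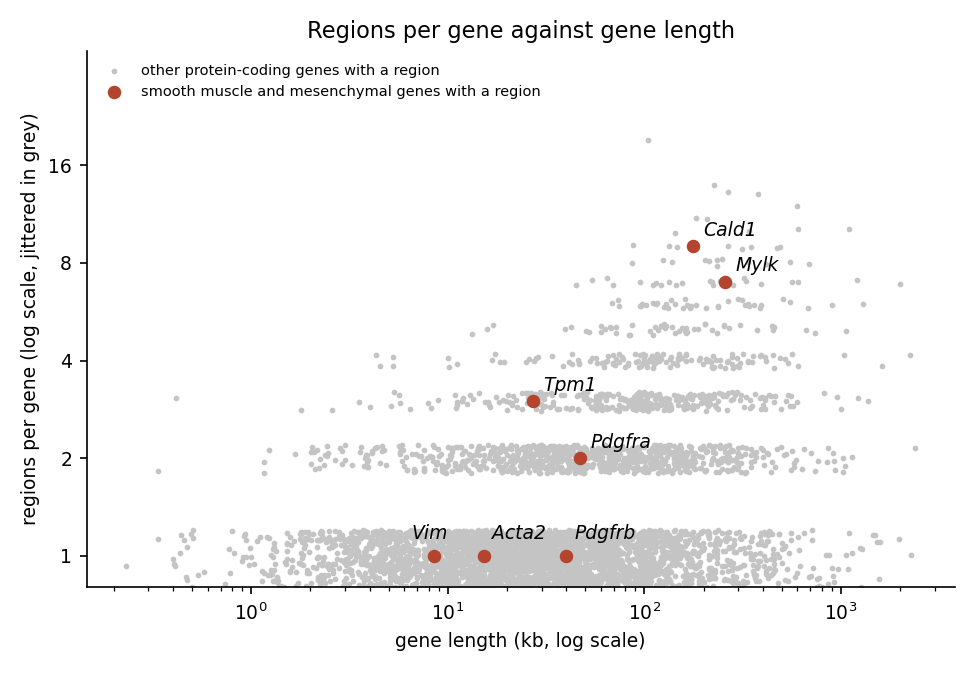
Number of regions (y axis, log scale) against gene length in kb (x axis, log scale) for protein-coding genes with a region, with small vertical jitter on the grey points. Cald1 (9 regions) and Mylk (7) lie near the top for long genes, Tpm1 (3) above most genes of its length, and Vim, Acta2 and Pdgfrb in the row of genes with 1 region.

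The regions of the set were described next by width and spacing. Their median width was 2.08 kb (quartiles 1.61 and 2.83 kb), against 2.1 kb (1.65 and 2.85 kb) for all 8133 regions, and 11 of 24 were wider than the median of all. Of the 24 regions 1 was assigned to more than 1 gene, against 681 of 8133 (8.37%) in the whole table, which was not tested. The 17 gaps between regions of one gene had a median of 8.7 kb, and all 17 were below the median gap of 67.7 kb between any neighbouring regions. Across all genes the gap between consecutive regions of the same gene had a median of 14.3 kb (quartiles 5.35 and 34.4 kb). Most such gaps were thus also below 67.7 kb. The count of 17 therefore does not show that regions of these genes lay unusually close together.

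Having a region was set against protein-coding genes at large. The share was 7 of 10 (70.0%) in the set, and 4583 of 21887 (20.9%) among protein-coding genes. The mean share over the length classes of the 10 genes was 26.2%. With 2 or more regions required the count was 4 of 10 (Mylk, Cald1, Tpm1 and Pdgfra), against 6.42% of protein-coding genes. With only regions of a single gene it stayed 7 of 10, against 18.0% of protein-coding genes. The set was chosen with results of these data known, so these shares are descriptions, and no test was made. The median over the 7 genes was 848 reads per kb, against 683 for listed genes, and 6 of the 10 genes had a region with reads per kb above that median, against 10.6% of protein-coding genes.

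Genes that work with the set were then counted in 5 lists. Of all protein-coding genes 20.9% had a region, and each list is also set beside the mean share over its length classes. Of 23 other contractile and actin-binding genes 14 (60.9%) had a region, against a mean of 23.1% over their length classes. The highest reads per kb were 1537 at Tpm4, a non-muscle tropomyosin, 1524 at Csrp1, a LIM protein of smooth muscle, 982 at Actg2, the enteric smooth muscle actin, and 897 at Tpm3. Tpm4 lies on chromosome 8, whose genes had a median of 984 reads per kb. Within gene families the picture was mixed. Tagln had no region and its relative Tagln2 had 1, at 817 reads per kb, and Cnn1 had none where Cnn3 had 2, at 853. Cnn2 and Tagln3 had none. No region was listed either for Smtn, Tpm2, Flna, Myl12a, Myl12b, Ppp1r12a and Ppp1r12b. The lowest values of the list were 459 at Lmod1, 534 at Des, 592 at Myl6, in a region shared with Myl6b, and 655 at Synpo2. These lay below the median of 683 of all listed genes. Of the other myosin light chain kinases Mylk2 had 2 regions (772 reads per kb) and Mylk3 had 1 (715, on chromosome 8 and below its median), fewer than the 7 of Mylk. Acta2 and Actg2 had 1 region each, at 970.3 and 982 reads per kb.

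Among 16 regulators linked to SRF, myocardin and RhoA 11 (68.8%) had a region, against a mean of 30.8% over their length classes. Srf itself reached 1272 reads per kb in a region shared with Gm16736, Gata6, a transcription factor of endoderm and smooth muscle, 1071 over 3 regions, of which 1 was shared with 1010001N08Rik, Myocd, the myocardin gene, 1068 in 1 region, and Tead1 831 over 14 regions. The genes of the myocardin-related coactivators, listed as Mkl1 and Mkl2, had 2 and 5 regions at lower values, 659 and 534. Elk1, with 272 in a region shared with Uxt, and Fhl1, with 204, had the lowest values of this list, and both lie on chromosome X, whose genes had a median of 160.5 reads per kb. Rhoa, Rock1, Fhl2, Klf4 and Arhgef1 had none.

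Of 12 genes listed as other intermediate filament genes 8 (66.7%) had a region, against a mean of 20.2% over their length classes. Plec is counted among them, although it encodes a linker of filaments and not a filament protein. They were led by Plec, the cytolinker plectin, with 1544 reads per kb over 5 regions, of which 1 was shared with a U6 gene, the keratin gene Krt18 with 1045, Lmna, the lamin A gene, with 992 and Nes, the nestin gene, with 987. Vim, at 1083, stood between Plec and Krt18. The genes that encode the same filament type as Vim are Des, of muscle, with 534, Gfap, of glia, with 453, and Prph, of neurons, with no region. The Gfap region was shared with Gm17536.

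Of 11 genes for PDGF ligands and related receptors 7 (63.6%) had a region, against a mean of 31.8% over their length classes. Pdgfb, the ligand that endothelium uses to recruit pericytes, was highest at 1176 reads per kb over 3 regions. The VEGF receptor genes Kdr and Flt1 had 895 and 769.7 over 3 regions each, and Pdgfrl had 821 in 1 region. Pdgfrl lies on chromosome 8, and its value was below the median of 984 for that chromosome. Pdgfa, Pdgfd, Csf1r and Flt3 had none. Pdgfc had 388.

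Of 25 other mesenchymal regulators and markers 11 (44.0%) had a region, the lowest share of the 5 lists, against a mean of 24.2% over their length classes. Eng, the endoglin co-receptor of endothelium and mesenchymal cells, had 1612 reads per kb, with 1 of 2 regions shared with AL772271.5. Anpep, a surface peptidase, had 1608, the forkhead gene Foxc1 1151 and Zeb2, a repressor of epithelial genes, 717 in a region shared with Gm13476. Their median was 596 reads per kb, below the 683 of all listed genes, whereas the medians of the other 4 lists ran from 750.4 to 871. Related genes of this list differed among themselves. Of the fibroblast collagen genes Col3a1 had 1 region, at 389 reads per kb, and Col1a1 and Col1a2 had none. Of the Twist genes Twist2 had 4 regions, at 689, and Twist1 had none. Zeb1, the relative of Zeb2, had 1 region at 414, the fibronectin gene Fn1 had 1 at 549.7 and the N-cadherin gene Cdh2 had 1 at 538. Wt1 had 1 region at 596 and Tcf21 had 2 at 365. The rest of the list had none, namely Snai1, Snai2, Prrx1, Foxc2, S100a4, Thy1, Cdh11, Nt5e, Mcam, Cspg4 and Rgs5. The background for each list is the 20.9% of protein-coding genes, and the mean shares over the length classes of their genes ran from 20.2% to 31.8%. Des stands in both the contractile and the filament list, which therefore overlap.

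**Figure D4:**
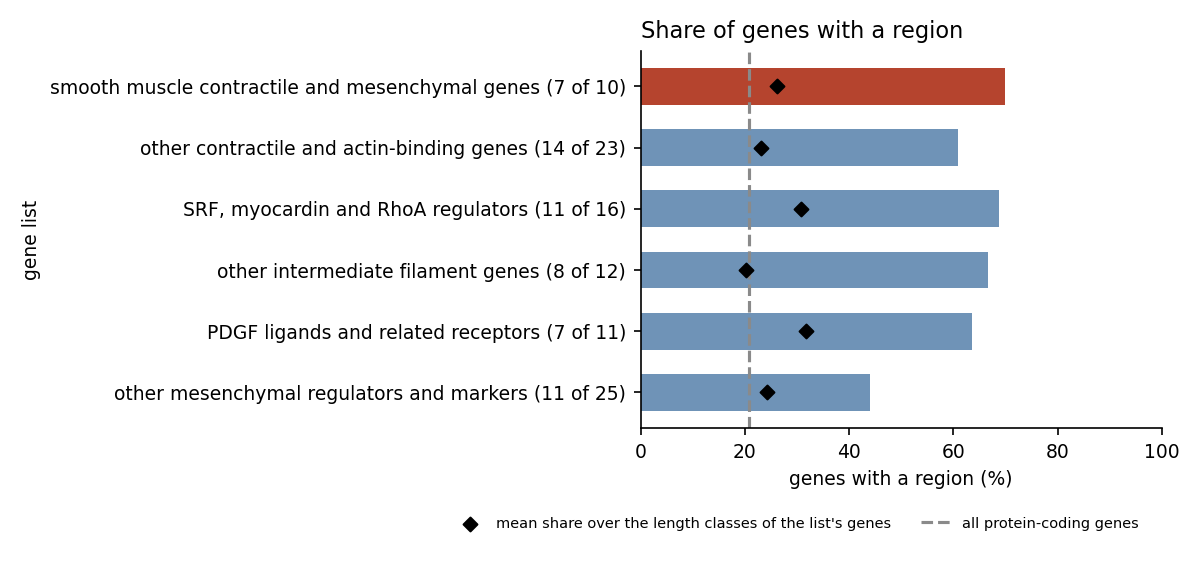
Share of genes with a region in percent (x axis) for the 10 genes and the 5 lists (y axis). The dashed line marks the 20.9% of all protein-coding genes and diamonds the mean share over the length classes of each list. The bars run from 70.0% for the set to 44.0% for other mesenchymal genes.

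**Figure D5:**
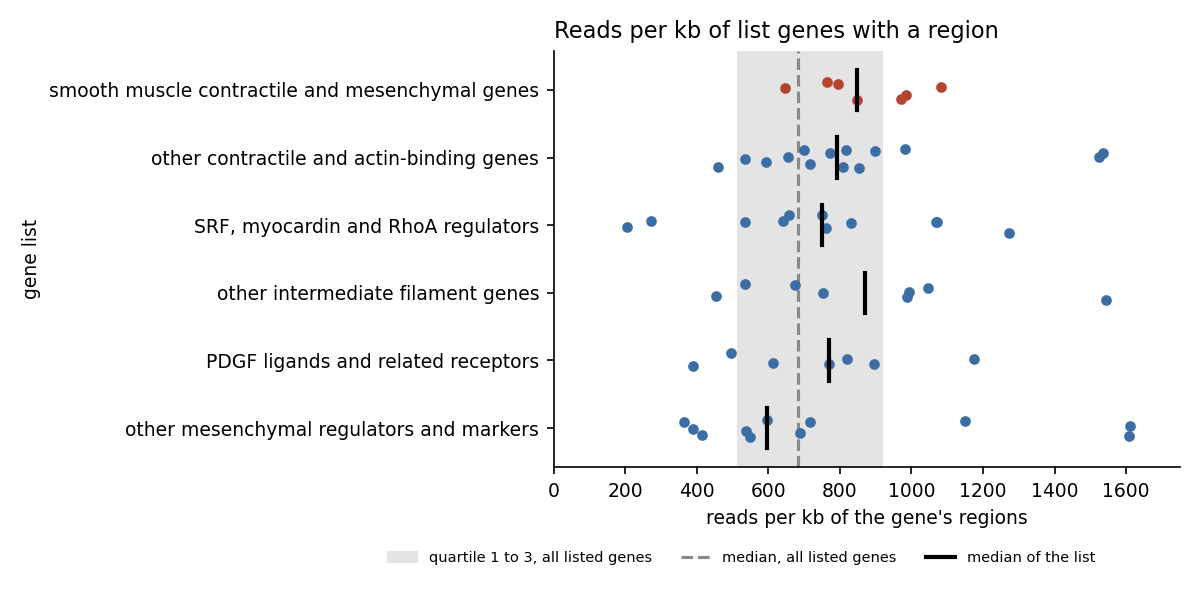
Reads per kb (x axis) of each gene with a region in the set and the 5 lists (y axis), with list medians as black lines and quartiles of all listed genes in grey. The 7 genes of the set lie between 648 and 1083, and the 5 lists reach lower and higher.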

How the data were processed

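Haemogenic endothelium libraries were prepared by a DamID protocol and sequenced on SOLiD instruments, per the labels. Positions are on mm9, which the submitters' processing notes name. Not given in the sources used here are the aligner, the region caller, the comparison with Dam and the rule that assigns regions to genes. The authors deposited 1 table with a whole-number read count per gene, summed over its regions. Its second value, deposited as a signal in reads per kilobase, equalled the count divided by the summed region length in all 5867 genes within 0.006. No scaling to library size was applied. The number of further columns with values of samples is 0. The test planned between the lines could not be made, as libraries have no values of their own.

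Positions are as deposited, and widths are end minus start. Exact Poisson intervals are at 95% and cover counting error only. Reads of single regions came from genes with 1 region or by subtraction. This step assumes that a shared region counts in full for each of its genes. It was run on simulated counts summed in that way, where recovery is exact by construction. That run cannot show how the deposited counts were summed. Genes were matched to RefSeq GRCm38.p6 by symbol or synonym on the same chromosome (4586 of 4771 protein-coding rows, 96.1%). That table gave lengths, cut into 10 classes, and strands. Python 3.11.15, pandas 2.3.3 and scipy 1.17.1 were used. The genes and lists were chosen with earlier results of these data known. Named were the 10 genes, genes sharing or next to their regions (1 neighbour is not reported here), and from every list up to 4 genes with the highest reads per kb. Other list genes and paralogues were named after their values were seen. The alternatives were regions of a single gene, 2 or more regions, genes above the median reads per kb, scaling by chromosome, protein-coding genes alone and length classes.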

Additional observations from a re-analysis of the deposited data

How the results depend on the processing

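No paired analysis was possible because the table gives no value per library, and for the same reason no replicate could be left out. The 7 genes with a region stayed 7 with regions of a single gene and were 6 above the median reads per kb of all listed genes. With 2 or more regions required, the counts were 4 of 10 for the set and 6 of 23 for other contractile genes. They were 7 of 16 for the SRF, myocardin and RhoA regulators and 4 of 12 for filament genes. PDGF ligands and related receptors had 4 of 11 and other mesenchymal genes 3 of 25, against 6.42% of protein-coding genes. With signal above that median required, the regulators had 6 of 16, filament genes 5 of 12 and PDGF genes 4 of 11. Other mesenchymal genes had 5 of 25 and contractile genes 10 of 23, against 10.6% of protein-coding genes. Using length classes moved the background share to 26.2%. Without the whole of Cald1, which shares 1 of its 9 regions, the median of the set was 909 reads per kb. This dropped the lowest of the 7 values. The other 8 Cald1 regions alone, at 652 reads per kb if the shared region counts in full, would remain the lowest. With scaling by chromosome the median was 865. Set against protein-coding genes alone, the median of 848 reads per kb stood above 69.8% of genes, close to 69.5% against all. Of 14 alternative percentiles of single genes 10 stayed within the range set by counting error. Those of Mylk (83.7%) and Cald1 (48.3%) with scaling by chromosome, and of Cald1 (40.0%) and Tpm1 (58.2%) among genes with the same number of regions, did not, and the cause was not tested. Unknown depth per library limits all values.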

Other observations

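Further relatives of the contractile genes were looked up after the values were seen. Among actin genes, Actg1 and Actb, the cytoplasmic actins, had 1528 reads per kb in 1 region and 773 over 2 regions, and Acta1 and Actc1, the skeletal and cardiac actins, had no region, while the smooth muscle actins Acta2 and Actg2 had 1 each. Of the 3 genes for non-muscle myosin heavy chains, which are relatives of Myh11, Myh9 had 3 regions at 1017 reads per kb, Myh10 had 3 at 727, and Myh14 had none. Mylk4 had none. In this group of 8 genes 4 had a region, against 20.9% of protein-coding genes and a mean of 24.8% over the length classes of the 8. The list was picked after its values were known and received no test.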
